A study of Mus musculus with 19 samples.

Results

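The 8 genes described here, Mpo, Elane, Prtn3, Ctsg, Ms4a3, Nkg7, Calr and Igfbp4, are a set of transcripts of the promyelocyte, the stage of neutrophil development at which primary granules are made. They were taken by symbol from a table of 34432 genes measured in mouse bone marrow, and all 8 were found, each in 1 row. Polyadenylated RNA was sequenced from 19 marrow libraries of untreated 8-week-old mice, flushed from tibiae and femurs, in 5 genotypes. These were wild type (WT, C57/BL6, n = 3), mice with the Vav-iCre transgene alone (VAV, n = 4), Cdk8 flox/flox mice with Vav-iCre (CDK8KO, n = 4), Cdk19 null mice (CDK19KO, n = 4) and mice with floxed Cdk8, Vav-iCre and the Cdk19 null allele together (DKO, n = 4). VAV, CDK8KO and DKO thus share the Cre transgene, which the Vav promoter drives mainly in blood cells, while WT and CDK19KO carry no Cre by their labels. CDK8 and CDK19 are closely related kinases that occupy the same place in the Mediator complex, a bridge between transcription factors and the RNA polymerase. Whether every library is from a different mouse is not in the labels, and the p-values below therefore reflect only library-to-library spread, some of which may be technical.

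Primary granules, also called azurophil granules, are the first granules that a developing neutrophil packs, and their proteins are made for a short time at the promyelocyte stage and then stored until the mature cell meets a microbe. Mpo encodes myeloperoxidase, which makes hypochlorous acid from hydrogen peroxide and chloride. Elane (neutrophil elastase), Prtn3 (proteinase 3) and Ctsg (cathepsin G) encode related serine proteases that are kept in the same granules. The other 4 members do not encode stored azurophil enzymes: Ms4a3 encodes a membrane protein of granulocyte and monocyte progenitors, Nkg7 a membrane protein best known from the granules of cytotoxic lymphocytes, Calr (calreticulin) a chaperone of the endoplasmic reticulum that helps fold myeloperoxidase, and Igfbp4 a secreted protein that binds insulin-like growth factors. The transcription factors PU.1, C/EBP, MYB and RUNX1 are known to act on several of the granule protein genes.

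Reads assigned to genes numbered 14881701 to 33010241 per library, and the members were counted from at least 587 reads in every library, so counting error was small beside the spread between libraries. Cdk19 was 1091 ± 62.5 normalised counts (SD, n = 4) in CDK19KO and 1173 ± 43.1 (SD, n = 4) in DKO against 3157 ± 99.7 (SD, n = 3) in WT and 3668 ± 525 (SD, n = 4) in VAV. The gene-level value of Cdk8 cannot reveal loss of a floxed exon, and it was 1013 ± 249 (SD, n = 4) in CDK8KO, 798 ± 62.0 (SD, n = 4) in DKO and 994 ± 230.1 (SD, n = 4) in VAV, so these values do not check the libraries labelled CDK8KO. VAV replicate 3 and CDK8KO replicate 1 stood apart by their erythroid transcripts, with 3.26% and 3.62% of reads in 14 erythroid genes against 0.121% to 1.5% in the other libraries, and CDK19KO replicate 4 and DKO replicate 4 by skeletal muscle transcripts, with 0.105% and 0.0287% of reads. Counts and calls of the members that moved without these libraries are given with and without them. In bulk marrow, fewer promyelocytes and less RNA of a gene per promyelocyte cannot be told apart.

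In the mouse genome (build GRCm38, mm10) the annotation places Mpo (ENSMUSG00000009350) at chr11:87793581-87804413 on the plus strand, Elane (ENSMUSG00000020125) at chr10:79886247-79888215 on the plus strand, Prtn3 (ENSMUSG00000057729) at chr10:79874476-79883174 on the plus strand and Ctsg (ENSMUSG00000040314) at chr14:56099881-56102574 on the minus strand. It places Ms4a3 (ENSMUSG00000024681) at chr19:11629496-11640851 on the minus strand, Nkg7 (ENSMUSG00000004612) at chr7:43437073-43438249 on the plus strand, Calr (ENSMUSG00000003814) at chr8:84841850-84846934 on the minus strand and Igfbp4 (ENSMUSG00000017493) at chr11:99041244-99054392 on the plus strand. All 8 are protein-coding genes. Elane and Prtn3 are neighbours whose annotated starts lie 11771 bases apart. The first 159 bases of Prtn3 overlap Plppr3 on the opposite strand, and Mpo overlaps the antisense gene Gm11505 over 5361 bases, so that without strand information reads from those stretches cannot be assigned to one gene with certainty.

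The promoters of the 4 granule enzyme genes are shown because these genes were high and low together from library to library, as described below, while Ctsg parted from the others in DKO. Each runs from 250 bases before to 50 bases after the start of the RefSeq transcript (GRCm38.p6), 5′ to 3′ on the strand of the gene, and RefSeq held an entry for 8 of the 8 members. The RefSeq start of Prtn3 lies inside the gene as annotated above, downstream of the stretch shared with Plppr3. The regions are chr11:87793534-87793833, plus strand for Mpo; chr10:79886062-79886361, plus strand for Elane; chr10:79879417-79879716, plus strand for Prtn3; and chr14:56102525-56102824, minus strand for Ctsg. Capitals mark matches, on either strand, to 4 short motifs: GAGGAA for PU.1, AACNGT for MYB, TGTGGT for RUNX and TTNNGNAA for C/EBP.
Mpo: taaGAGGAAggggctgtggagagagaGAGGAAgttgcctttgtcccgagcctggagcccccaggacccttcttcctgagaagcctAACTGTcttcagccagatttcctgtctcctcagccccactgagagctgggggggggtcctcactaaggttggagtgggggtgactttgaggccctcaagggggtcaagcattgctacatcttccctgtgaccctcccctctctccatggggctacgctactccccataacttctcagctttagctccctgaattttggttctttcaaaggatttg
Elane: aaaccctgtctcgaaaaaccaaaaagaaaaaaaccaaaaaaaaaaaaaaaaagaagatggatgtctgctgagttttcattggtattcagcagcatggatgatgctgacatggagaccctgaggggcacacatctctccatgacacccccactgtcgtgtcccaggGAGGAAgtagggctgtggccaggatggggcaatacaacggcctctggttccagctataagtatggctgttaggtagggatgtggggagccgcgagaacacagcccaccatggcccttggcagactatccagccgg
Prtn3: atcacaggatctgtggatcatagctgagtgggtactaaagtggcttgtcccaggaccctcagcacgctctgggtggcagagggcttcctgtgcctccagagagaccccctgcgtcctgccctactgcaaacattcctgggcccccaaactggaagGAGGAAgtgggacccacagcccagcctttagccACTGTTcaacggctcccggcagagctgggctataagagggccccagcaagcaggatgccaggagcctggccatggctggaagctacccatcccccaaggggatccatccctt
Ctsg: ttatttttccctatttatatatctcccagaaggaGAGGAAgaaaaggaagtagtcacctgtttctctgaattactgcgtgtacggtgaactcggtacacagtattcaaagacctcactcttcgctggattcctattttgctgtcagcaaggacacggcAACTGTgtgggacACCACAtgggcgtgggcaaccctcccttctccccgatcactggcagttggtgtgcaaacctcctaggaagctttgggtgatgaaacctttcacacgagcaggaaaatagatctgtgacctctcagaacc

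The PU.1 motif GAGGAA was found in the promoters of 5 of the 8 members, among them all 4 printed here, against 28.3% of 32851 mouse promoters of the same length. It lay 85 bases before the start in Elane, 95 in Prtn3, 216 in Ctsg and 247 and 224 in Mpo. The MYB motif was found in 4 members (Mpo, Prtn3, Ctsg and Nkg7) against 26.1% of promoters, and it lay 165, 62 and 92 bases before the start in Mpo, Prtn3 and Ctsg. The RUNX motif was found in 2 members, Ctsg and Nkg7, against 16.8% of promoters, and lay 79 bases before the start of Ctsg and 83 before that of Nkg7. The C/EBP motif was found in Ms4a3 alone of the 8 members, against 40.7% of promoters. No 2 matches overlapped in the printed promoters. A match is a description of the letters and not of a bound site.

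Compared per length of exon, Mpo was the most abundant member, at 14444 normalised counts per kb averaged over the 19 libraries, followed by Elane at 8506. Calr and Ctsg came next at 3514 and 3397, then Ms4a3 at 2032, Prtn3 at 1519, Nkg7 at 1282 and Igfbp4 at 577. Normalised counts are read counts divided by a size factor for each library. The order of neighbours was the same in 19 of 19 libraries for 5 of the 7 neighbouring pairs. Calr stood above Ctsg in 13 libraries, of which 1 of the 4 DKO libraries, and Prtn3 above Nkg7 in 16, again with 1 of the 4 DKO libraries. Calr stood below Ctsg in DKO replicates 1 to 3, and Prtn3 below Nkg7 in DKO replicates 2 to 4. Together the 8 members took between 0.189% of the reads (CDK8KO replicate 1) and 0.614% (VAV replicate 4).

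The members varied strongly within groups, and they varied together. The range over the 19 libraries was widest for Mpo, with 106035 normalised counts in the highest library against 20986 in the lowest, 5.05-fold, and narrowest for Calr, at 1.93-fold. Within VAV, replicate 4 was highest for 7 of the 8 members and replicate 3 was lowest for 8 of 8. Within CDK8KO, replicate 4 was highest for 8 of 8 and replicate 1 was lowest for 6. VAV replicate 3 and CDK8KO replicate 1, the lowest of their groups for most members, are the 2 libraries rich in erythroid transcripts, and the part of that difference in the members' levels was not tested. The coefficient of variation over the members had a median of 35.7% in VAV, 41.6% in CDK8KO and 37.7% in DKO, against 17.6% in WT and 13.9% in CDK19KO.

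Across the 19 libraries the correlation between 2 members on the log2 scale ranged from 0.36 to 0.90 over the 28 pairs, with a median of 0.70. These libraries share depth scaling and cell composition, so the values are a description. With the mean of each genotype taken out, the range was 0.52 to 0.94 and the median 0.77. The correlation of Elane with Ctsg was 0.65 before and 0.94 after this step, and that of Mpo with Ctsg 0.56 and 0.78, whereas Elane and Prtn3 were at 0.90 and 0.94. Ctsg thus followed Elane closely over the 19 libraries together once the genotype means were taken out, and less closely before.

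**Figure D1:**
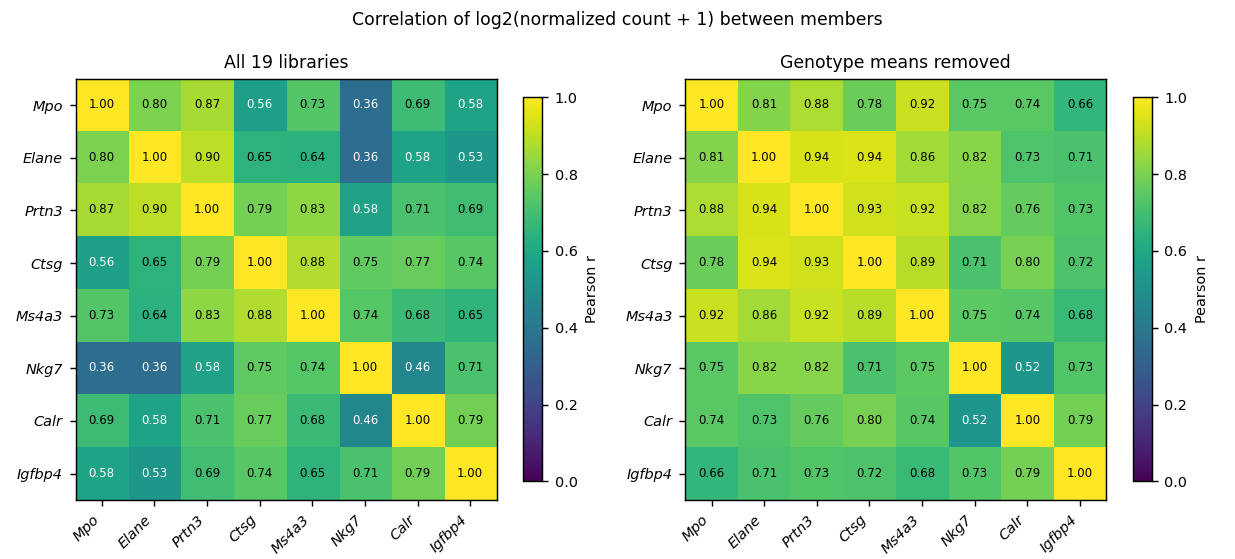
Pearson correlation of log2(normalised count + 1) between the 8 members over 19 libraries, on the left from all values and on the right with the mean of each genotype taken out; colour and printed number both give r. Elane and Ctsg stand at 0.65 on the left and 0.94 on the right.

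The main comparison set DKO, which by its labels lacks both kinases, against VAV, which carries the same Cre transgene. None of the 8 members passed at an adjusted p under 0.05 (limma over 13976 tested genes), where 1.52% of all tested genes passed. At an unadjusted p under 0.05 there were 2, Mpo and Elane, where 15.7% of all tested genes were. Of the members, edgeR and DESeq2 on the recovered reads each called 0. The libraries of the groups overlapped for all 8 members, where 8.49% of tested genes had no overlap. The 3 granule genes Mpo, Elane and Prtn3 had lower means in DKO, and Ctsg, Ms4a3 and Nkg7 had higher ones. With Calr and Igfbp4, 5 of the 8 were lower, and the median log2 fold change was -0.16 against -0.00919 over all genes. With each library left out the median ran from -0.26 (without VAV replicate 3, with 7 of 8 lower) to -0.02 (without DKO replicate 3, with 4 of 8 lower).

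Mpo stood at 77818, 106035, 34709 and 82955 normalised counts in VAV replicates 1 to 4. It stood at 45029, 60439, 20986 and 27635 in DKO replicates 1 to 4. Of the DKO libraries, 2 lay below every VAV library and 2 lay inside the VAV range, near the level of WT (38526 to 57024). The log2 fold change was -0.98 ± 0.36 (SE) with adjusted p = 0.197, the lowest of the members. Without the 2 erythroid-rich libraries it was -1.31 with adjusted p = 0.0268, which passes, and without VAV replicate 3 alone it was -1.31 with adjusted p = 0.0540. Of the 13976 tested genes, 385 and 226 passed in these 2 fits, against 213 with all libraries. Against WT in place of VAV it was -0.32 with adjusted p = 0.754.

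Elane stood at 8174, 10635, 6403 and 16695 normalised counts in VAV. In DKO it stood at 8814, 8344, 3815 and 4730.2. DKO replicates 3 and 4 lay below all VAV libraries and replicates 1 and 2 within them, and the log2 fold change was -0.70 ± 0.31 (SE) with adjusted p = 0.269. Prtn3, whose gene lies beside Elane, showed the same split: it stood at 3790.3, 3423, 1741 and 5016 in VAV. Its DKO libraries were at 3366, 3141, 1538 and 1578, with a log2 fold change of -0.54 ± 0.33 (SE) and adjusted p = 0.437.

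Ctsg, the third of the serine proteases, did not share that direction. It stood at 3030.5, 3723, 2261 and 6663 normalised counts in VAV. In DKO it stood at 6299.6, 5641, 3314 and 2663. DKO replicates 1 and 2 lay above all VAV libraries but replicate 4, and DKO replicates 3 and 4 lay among the other 3. The log2 fold change was 0.22 ± 0.34 (SE) with adjusted p = 0.789, and its 95% interval, -0.49 to 0.93, held changes in both directions. Without VAV replicate 3 the log2 fold change was -0.00418.

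Ms4a3 had a similar pattern, at 4128, 4537, 2406 and 5725 normalised counts in VAV. The 4 DKO libraries were at 5661, 6132, 3380.2 and 2866, and the log2 fold change was 0.10 ± 0.29 (SE) with adjusted p = 0.897. The groups covered nearly the same range, and without VAV replicate 3 the log2 fold change was -0.15, without DKO replicate 1 -0.0386 and without DKO replicate 2 -0.0770. Nkg7 had the largest positive difference among the members. It stood at 1332, 1152, 776 and 1593 in VAV. In DKO it stood at 1709, 1889.7, 1103 and 1718, so that 3 of the 4 DKO libraries lay above every library of the other 4 groups and replicate 3 lay inside the VAV range. The log2 fold change was 0.42 ± 0.22 (SE) with adjusted p = 0.362.

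Calr, the chaperone, had the narrowest range of the members over the 19 libraries. It stood at 10826, 12187, 8926 and 13776 normalised counts in VAV. The DKO libraries were at 12221, 10606, 8791 and 9867, with a log2 fold change of -0.13 ± 0.18 (SE) and adjusted p = 0.760. Its 95% interval was -0.51 to 0.25. Igfbp4 stood at 3339.9, 2852, 2625 and 3985 in VAV. In DKO it stood at 3327, 3231, 1818 and 3073, with a log2 fold change of -0.18 ± 0.23 (SE) and adjusted p = 0.742. DKO replicate 3 alone lay below the VAV libraries for Igfbp4.

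**Figure D2:**
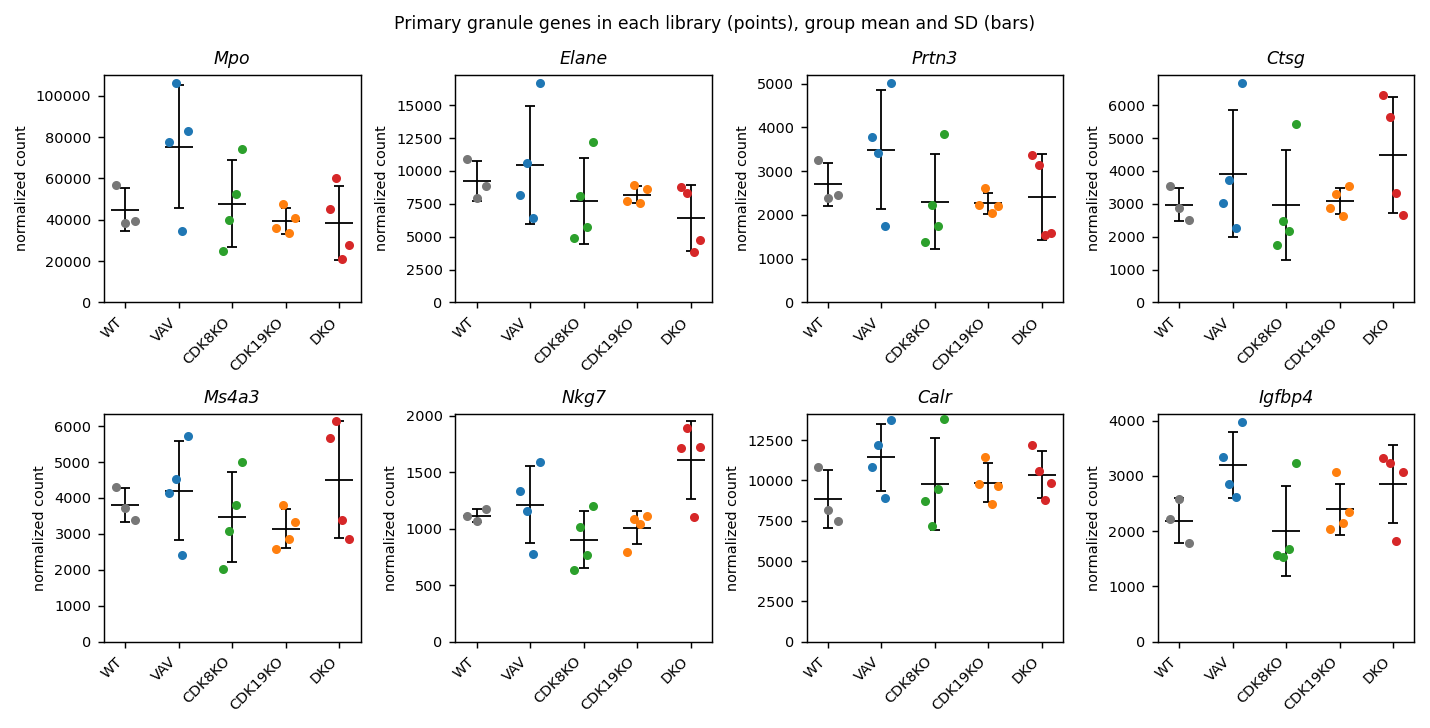
Normalised count of each of the 8 members (vertical axis, from 0) in every library, by genotype (horizontal axis); points are libraries, bars the group mean and SD. Mpo reaches 106035 in VAV and 60439 in DKO at most, and Nkg7 is above every library of the other genotypes in 3 of the 4 DKO libraries.

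CDK8KO against VAV asks what loss of Cdk8 in blood cells does beside the same transgene. The means of all 8 members were lower in the libraries labelled CDK8KO, and the log2 fold changes had a median of -0.43 against -0.00451 over all tested genes. None of the 8 passed, nor did any tested gene (limma, 0% passed), and edgeR and DESeq2 called 0 members. An unadjusted p under 0.05 was reached by 1 member and by 8.31% of all tested genes. No member had groups without overlap, where 1.76% of all genes had. Igfbp4 had the largest difference: it stood at 1564, 1535, 1682 and 3227 normalised counts in CDK8KO, where 3 of 4 libraries lay below every VAV library. Its log2 fold change was -0.73 ± 0.23 (SE) with adjusted p = 0.586.

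Mpo stood at 24930.0, 39731, 52333 and 74321 in CDK8KO, with a log2 fold change of -0.66 ± 0.36 (SE) against VAV and adjusted p = 0.593. CDK8KO replicate 1 lay below all VAV libraries and the others within their range. Prtn3 had a log2 fold change of -0.61 ± 0.33 (SE), Elane of -0.44 ± 0.31 (SE) and Ctsg of -0.43 ± 0.34 (SE), with adjusted p-values of 0.590, 0.648 and 0.680. Nkg7, at -0.42 ± 0.22 (SE), Ms4a3, at -0.28 ± 0.29 (SE), and Calr, at -0.25 ± 0.18 (SE), had adjusted p-values of 0.590, 0.760 and 0.664. The members were lower in 8 of 8 when any one of the 8 libraries was left out, with medians from -0.73 to -0.23, and also without the 2 erythroid-rich libraries, at -0.46. Against WT in place of VAV, 6 of 8 were lower and the median was -0.19. In the same comparison with VAV, 14 of 14 erythroid genes were higher (median 1.13), 10 of 10 stromal and vessel genes lower (-0.37) and 5 of 5 megakaryocyte genes lower (-0.77), with none past the threshold. The part of these cells in the levels of the members, Igfbp4 among them, was not tested.

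VAV against WT gives the background of the transgene. The means of all 8 members were higher in VAV, with a median log2 fold change of 0.29 against -0.01 over all genes. Without VAV replicate 4 only 4 of 8 were higher and the median was 0.04, and without the erythroid-rich VAV replicate 3 it was 0.50 with 8 of 8 higher. None passed, where 0.093% of genes did (limma), and edgeR and DESeq2 called 0. An unadjusted p under 0.05 was reached by 1 member and by 14.8% of all genes. Igfbp4 was the 1 member whose groups did not overlap, where 12.4% of all genes did not. It stood at 2217, 2585 and 1781 normalised counts in WT, each below every VAV library, and its log2 fold change was 0.54 ± 0.25 (SE) with adjusted p = 0.322. Mpo stood at 57024, 38526 and 39283 in WT, where 3 of the 4 VAV libraries lay higher, and its log2 fold change was 0.66 ± 0.39 (SE) with adjusted p = 0.435. VAV is also the group against which CDK8KO and DKO were set, so a VAV level that differs from WT enters those comparisons too.

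CDK19KO against WT compared the 2 groups without Cre. None of the 8 members passed, where 0.0215% of genes did (limma), and edgeR and DESeq2 called 0. An unadjusted p under 0.05 was reached by 0 members and by 3.07% of all genes. No member had groups without overlap, where 7.61% of all genes had. The means of 3 members were higher and those of 5 lower in CDK19KO, with a median of -0.16, log2 fold changes between -0.28 (Ms4a3) and 0.17 (Calr), and an adjusted p of 1 for each. Mpo stood at 35839, 47494, 33607 and 40958 normalised counts in CDK19KO, 2 within the WT range and 2 below it. Nkg7 stood at 791, 1088, 1043 and 1112 in CDK19KO and at 1108, 1064 and 1176 in WT. The CDK19KO libraries differed less from each other than those of any other group for Elane, at 8205 ± 662 (SD, n = 4), and for Prtn3, at 2269 ± 240.4 (SD, n = 4).

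DKO was also set against each single knockout, and these comparisons share the DKO libraries. Against CDK8KO, 6 of 8 members had higher means, with a median of 0.25 against 0.000178 over all genes; none passed in limma, where 1.7% of genes did. The median was 0.11, with 5 of 8 higher, without CDK8KO replicate 1, and the same without both erythroid-rich libraries. It was 0.47 without CDK8KO replicate 4, with 6 of 8 higher. Erythroid genes were lower in DKO in 14 of 14 here, with a median of -1.61, and their part in the members' values was not tested. An unadjusted p under 0.05 was reached by 2 members, Nkg7 and Igfbp4, and by 16.1% of all genes. Of the members, edgeR called 0 and DESeq2 called 1, Nkg7, at a log2 fold change of 0.83 with adjusted p = 0.0105. Over all genes DESeq2 called 711 of 13921 in this comparison, and edgeR 220 of 13976. Nkg7 stood at 638, 1012, 767 and 1197 normalised counts in CDK8KO, where only replicate 4 reached the level of DKO replicate 3. Its log2 fold change in limma was 0.84 ± 0.22 (SE) with adjusted p = 0.0611. Without DKO replicate 3 it was 1.01 with adjusted p = 0.0320, and without CDK8KO replicate 4 it was 0.99 with adjusted p = 0.0250, where Igfbp4 passed too at 0.81 with adjusted p = 0.0400. In these 2 fits 139 and 422 of the 13976 tested genes passed. No member had groups without overlap, where 7.43% of all genes had.

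Against CDK19KO, 5 of 8 members had higher means in DKO, with a median of 0.15 against -0.00985 over all genes; none passed in limma, where 2% of genes did. The median ran from 0.07 without DKO replicate 1, with 4 of 8 higher, to 0.31 without DKO replicate 3, with 7 of 8 higher. At an unadjusted p under 0.05 there was 1 member, where 15.6% of all genes were, and edgeR and DESeq2 called 0. This member was Nkg7, at 0.65 ± 0.22 (SE) with adjusted p = 0.146. No member had groups without overlap, where 15% of all genes had. The interaction, which asks whether losing Cdk19 moves a gene differently with Cdk8 floxed and with Cdk8 intact, was largest for Nkg7, at 0.998 ± 0.32 (SE) with adjusted p = 0.381. None of the 8 passed, where 0.15% of genes did (limma), and edgeR and DESeq2 called 0. An unadjusted p under 0.05 was reached by 1 member and by 8.64% of all genes. Ms4a3 and Ctsg followed at 0.66 ± 0.42 (SE) and 0.60 ± 0.50 (SE), and Elane and Mpo were at -0.11 ± 0.45 (SE) and -0.15 ± 0.53 (SE). In the interaction and in DKO against CDK19KO, floxed Cdk8 comes together with Cre, so loss of Cdk8 and the transgene cannot be told apart.

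**Figure D3:**
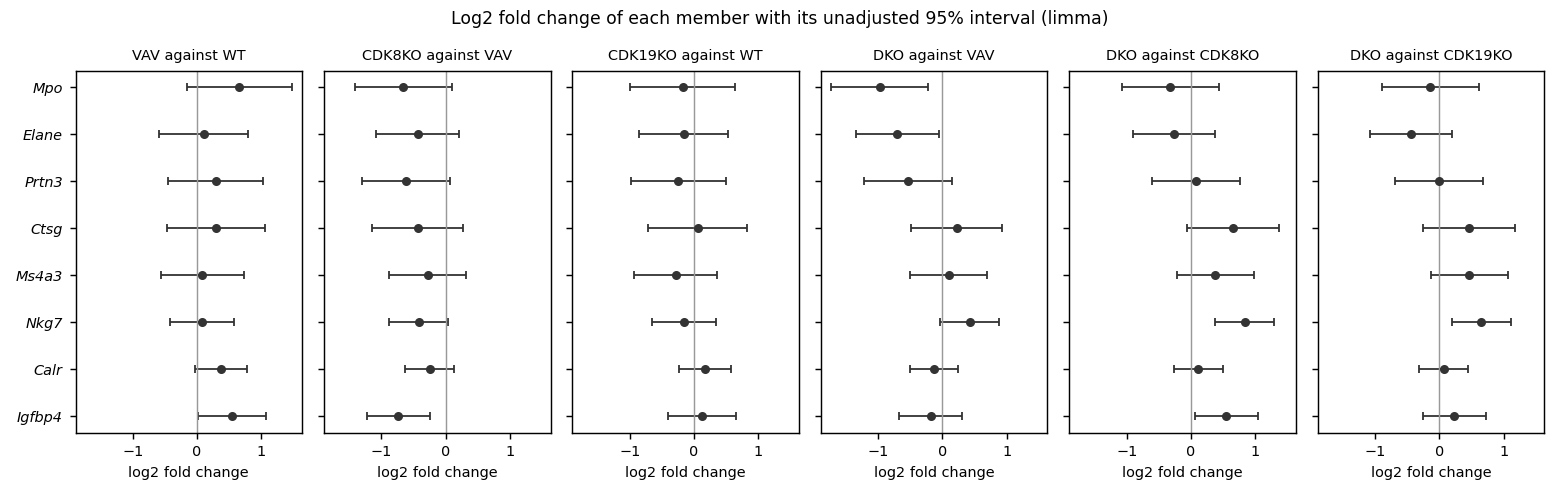
Log2 fold change of each member (horizontal axis) with its unadjusted 95% interval in 6 comparisons from the limma fit over all genes. In CDK8KO against VAV all 8 points lie below 0, and in DKO against VAV they run from -0.98 for Mpo to 0.42 for Nkg7.

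Because the members were high and low together from library to library, each member was also divided by another within the same library, which takes out what both share. These ratios were chosen after the values had been seen. They are ratios of normalised counts, not of counts per length, and the 28 pairs share members. The trios with lower means in DKO (Mpo, Elane and Prtn3) and with higher means (Ctsg, Ms4a3 and Nkg7) were known from the same libraries, so a difference of their ratios between DKO and VAV in that direction was fixed by the choice, and the ratios are a description with no test of their own. All 9 ratios between the trios had no overlap between DKO and VAV, and so had Nkg7 relative to Calr and to Igfbp4, which makes 11 of 28 pairs. In 6 pairs the 4 DKO libraries lay apart from all 15 others. Pairs without overlap numbered 7 of 28 in CDK19KO against WT, 1 in CDK8KO against VAV and 2 in VAV against WT. They numbered 9 in DKO against CDK8KO and 12 in DKO against CDK19KO. Single genes without overlap made up 7.61%, 1.76%, 12.4%, 7.43% and 15% of all tested genes in these comparisons, in the same order. WT has 3 libraries, with which groups part more easily than with 4. No share over all pairs of genes is given here, so the counts of pairs stand without a background of their own. The shares over all genes are given below for ratios to Elane and to Mpo, only for DKO against VAV and against all 15 others.

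The ratio of Ctsg to Elane was 0.715, 0.676, 0.869 and 0.563 in DKO replicates 1 to 4. In VAV it was 0.371, 0.350, 0.353 and 0.399. It was 0.284 to 0.364 in WT, 0.305 to 0.445 in CDK8KO and 0.348 to 0.409 in CDK19KO, so every DKO library lay above every other library. The mean was 0.706 ± 0.126 (SD, n = 4) in DKO and 0.368 ± 0.0225 (SD, n = 4) in VAV, a log2 difference of 0.92. Leaving out each library gave log2 differences from 0.82 to 1.03.

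The ratio of Ctsg to Prtn3 was 1.87, 1.80, 2.15 and 1.69 in DKO. In VAV it was 0.800, 1.09, 1.30 and 1.33, and the highest value outside DKO was 1.59, in CDK19KO replicate 4. All 4 DKO libraries lay above it, with a log2 difference from VAV of 0.76. This ratio was also higher in every CDK19KO library (1.27 to 1.59) than in any WT library (1.02 to 1.21). The ratio of Ctsg to Mpo was 0.140, 0.0933, 0.158 and 0.0964 in DKO and 0.0351 to 0.0803 in VAV. The highest value outside DKO was 0.0861, also in CDK19KO. By contrast the ratio of Prtn3 to Elane overlapped between the groups, at 0.334 to 0.403 in DKO and 0.272 to 0.464 in VAV, and so did that of Mpo to Elane, at 5.11 to 7.24 and 4.97 to 9.97.

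The ratio of Nkg7 to Elane was 0.194, 0.226, 0.289 and 0.363 in DKO. In VAV it was 0.163, 0.108, 0.121 and 0.0954, and no library outside DKO exceeded 0.163. The log2 difference was 1.12, and 0.96 to 1.27 with each library left out. The ratio of Ms4a3 to Elane was 0.642, 0.735, 0.886 and 0.606 in DKO. In VAV it was 0.505, 0.427, 0.376 and 0.343, below all DKO libraries. CDK8KO replicate 3, at 0.663, reached into the DKO range, so this pair was not among the 6 that set DKO apart from all 15 libraries. The log2 difference from VAV was 0.80, and 0.69 to 0.90 with each library left out.

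The ratios were then set beside those of all genes, by dividing every tested gene by Elane or by Mpo in each library. Elane and Mpo had lower means in DKO in these same libraries, so higher ratios to them were favoured by the choice. The p-values below therefore place a member among all genes and are no independent test of it. Relative to Elane, 3 of the 7 other members had no overlap between DKO and VAV, all 3 higher in DKO, where 5.32% of genes had no overlap and 5.22% were higher with none. For 2 of them, Ctsg and Nkg7, the 4 DKO libraries lay above all 15 others, as for 1.1% of genes. In limma over all genes the difference between DKO and VAV relative to Elane was 1.12 ± 0.29 (SE), adjusted p = 0.0584, for Nkg7. For Ctsg it was 0.92 ± 0.26 (SE), adjusted p = 0.0846, and for Ms4a3 0.80 ± 0.28 (SE), adjusted p = 0.137. None of the 7 passed, where 1.31% of genes did. Without the 2 erythroid-rich libraries Nkg7 and Ctsg passed, with adjusted p = 0.0370 and 0.0452, and Nkg7 also passed without VAV replicate 3 (0.0476) and without DKO replicate 1 (0.0289). The share of all genes that passed in these reduced fits is not given here, so the passes stand without a background.

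Relative to Mpo, 3 members had no overlap and were higher in DKO, where 5.31% of genes had no overlap and 5.23% were higher with none, and the 4 DKO libraries lay above all 15 others for Ctsg, Ms4a3 and Nkg7, as for 0.63% of genes. In limma over all genes the difference of Nkg7 relative to Mpo was 1.4 ± 0.36 (SE), adjusted p = 0.0404, the 1 of 7 that passed, where 2.79% of genes did. Its adjusted p was 0.104 to 0.189 without VAV replicate 1, 2 or 4 or DKO replicate 3 or 4, and 0.220 without the 2 muscle-rich libraries, so that it no longer passed. For Ms4a3 the difference was 1.07 ± 0.32 (SE), adjusted p = 0.0607, and for Ctsg 1.20 ± 0.36 (SE), adjusted p = 0.0617. Both passed without VAV replicate 3, with adjusted p = 0.0118 and 0.0120, and without DKO replicate 2, with 0.0243 for each, and Calr and Igfbp4 passed there too. Without the erythroid-rich libraries the adjusted p was 0.00555 for Ms4a3, 0.00560 for Ctsg, 0.00672 for Calr and 0.00859 for Igfbp4. Undivided, and without these libraries, Mpo was at -1.31 in DKO against VAV, Ctsg at -0.00418 and Ms4a3 at -0.150. With all libraries, undivided Calr was at -0.13 and Igfbp4 at -0.18. The 2.79% holds for the fit of all libraries, and the share of all genes that passed in the reduced fits is not given here. A lower Mpo in DKO raises the ratio of every gene to it. A pass relative to Mpo therefore cannot tell a change of the member from the lower Mpo. In CDK8KO against VAV the difference relative to Elane was 0.00 ± 0.26 (SE), adjusted p = 0.993, for Ctsg, and 0.02 ± 0.29 (SE), adjusted p = 0.967, for Nkg7.

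**Figure D4:**
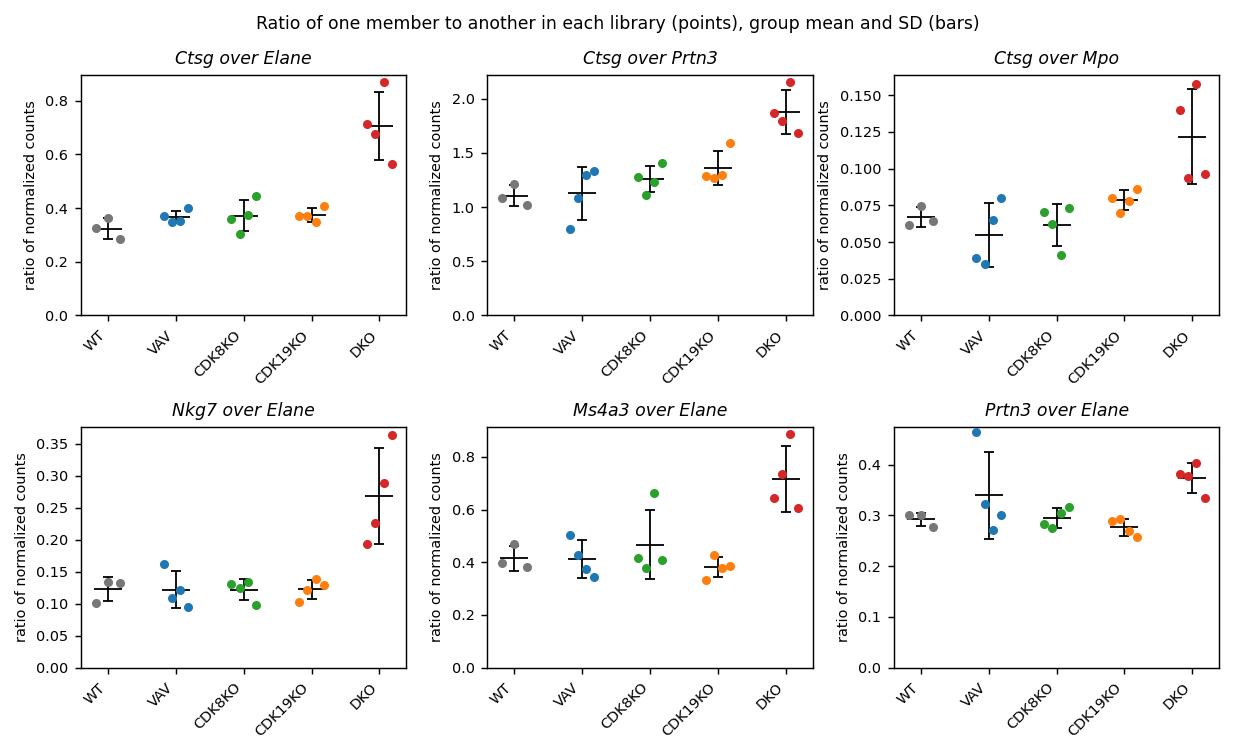
Ratio of the normalised counts of one member to another (vertical axis, from 0) in every library, by genotype; points are libraries, bars the group mean and SD. The 4 DKO libraries lie above the 15 others for Ctsg over Elane, Prtn3 and Mpo and for Nkg7 over Elane, and overlap with VAV for Prtn3 over Elane.

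Transcripts of other cell types also differed in DKO. Ms4a3 is known from progenitors of several granulocytes, Ctsg also from mast cells and Nkg7 from lymphocytes, so lists of markers for these cells are given beside the ratios. The 13 eosinophil, basophil and mast cell genes took 0.0643% to 0.109% of reads in DKO, above every other library (0.0302% to 0.0486% in VAV, and 0.0223% to 0.0531% over the 15 libraries), and none of the 13 was at 0 in any library. Of these 13, 7 rose and 0 fell in DKO against VAV, with a median of 1.09 on the log2 scale. Epx, the eosinophil peroxidase, went from 373 ± 309.8 (SD, n = 4) to 1906 ± 995 (SD, n = 4) normalised counts, a log2 fold change of 2.51 ± 0.51 (SE), adjusted p = 0.0154. Fcer1a, a chain of the IgE receptor of basophils and mast cells, went from 119 ± 9.51 (SD, n = 4) to 344 ± 60.8 (SD, n = 4), at 1.51 ± 0.21 (SE), adjusted p = 0.000815. Cpa3, a mast cell and basophil protease, rose in DKO against CDK8KO, at 1.32 ± 0.27 (SE), adjusted p = 0.0180, and against CDK19KO, at 1.31 ± 0.27 (SE), adjusted p = 0.0166. The part of these cells in the Ctsg, Ms4a3 and Nkg7 ratios was not tested.

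The 16 cytotoxic lymphocyte genes took 0.00625% to 0.0178% of reads in DKO and 0.00685% to 0.0107% in VAV. DKO replicates 2, 3 and 4, at 0.0141%, 0.0167% and 0.0178%, lay above all 15 libraries of the other genotypes (at most 0.0133%), and none of the genes was at 0 in any library. DKO replicate 1, at 0.00625%, had the lowest share of all 19 libraries. Nkg7 did not follow this order, at 1709, 1889.7, 1103 and 1718 normalised counts in DKO replicates 1 to 4. Of the 16, 13 were higher and 3 lower in DKO against VAV, with a median log2 fold change of 0.39, beside 0.42 for Nkg7; 1 rose and 1 fell. Cd8a, of cytotoxic T cells, rose by 1.83 ± 0.34 (SE), adjusted p = 0.00753, while Ncr1, a receptor of natural killer cells, was at -1.28 ± 0.30 (SE), adjusted p = 0.0384, a fall. Cd3e, a chain of the T cell receptor complex, was at 1.20 ± 0.34 (SE), adjusted p = 0.10, and Klrd1, a receptor of natural killer and T cells, at 0.88 ± 0.29 (SE), adjusted p = 0.152. In DKO Cd3e stood at 489.9 ± 234 (SD, n = 4) normalised counts, Cd8a at 449.9 ± 165 (SD, n = 4) and Klrd1 at 196 ± 74.8 (SD, n = 4), beside 1605 ± 345 (SD, n = 4) for Nkg7, on a scale that is not per length. The part of lymphocytes in the Nkg7 values was not tested. The correlation of Nkg7 with the mean of Mpo, Elane, Prtn3 and Ctsg was 0.56 over 19 libraries, the lowest of the other 4 members.

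Other genes of the primary granule did not pass either. Of 20 further azurophil granule genes 19 were tested, and 0 rose and 0 fell in DKO against VAV, with 6 higher, 13 lower and a median of -0.01. Ctsc, the protease that activates the granule serine proteases, was at 0.37 ± 0.25 (SE), adjusted p = 0.486. Bpi, which encodes a bactericidal protein of human azurophil granules, was at under 3 normalised counts in every library. In CDK8KO against VAV 18 of the 19 were lower, with a median of -0.24 and none past the threshold, beside the 8 of 8 members that were lower. VAV, the control here, was itself higher than WT for 17 of the 19, with a median of 0.33 and none past the threshold. In DKO against CDK8KO 18 of 19 were higher, with a median of 0.21. Of 8 other promyelocyte genes none passed in DKO against VAV, with 6 higher. The stem cell factor receptor Kit was at -0.63 ± 0.16 (SE), adjusted p = 0.0632. Nucb2, a calcium-binding protein of the Golgi, rose in DKO against CDK8KO by 0.66 ± 0.16 (SE), adjusted p = 0.0439.

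Of genes of the granules that are made after the promyelocyte stage, some fell. Of 18 secondary and tertiary granule genes 3 fell and 0 rose in DKO against VAV, with a median of -0.25. Mmp8, the neutrophil collagenase, went from 32379 ± 8145 (SD, n = 4) to 15659 ± 3329 (SD, n = 4) normalised counts, at -1.04 ± 0.20 (SE), adjusted p = 0.0116. Camp, the cathelicidin precursor, was at -0.82 ± 0.16 (SE), adjusted p = 0.0136, and Olfm4, olfactomedin 4, at -1.16 ± 0.26 (SE), adjusted p = 0.0247. Of 10 late neutrophil genes 2 fell, Fpr1, a receptor of formylated peptides, at -0.86 ± 0.21 (SE), adjusted p = 0.0446, and the cytokine gene Il1b at -1.55 ± 0.38 (SE), adjusted p = 0.0474. All 10 were lower, with a median of -0.34. In VAV against WT all 10 were higher (median 0.37), as were 15 of the 18 secondary and tertiary granule genes (0.43), with none past the threshold. Against CDK8KO, 3 of the 18 fell in DKO, with 10 higher and 8 lower. Against CDK19KO, 12 of the 18 secondary and tertiary granule genes were higher in DKO and 6 lower: Camp fell, at -0.72 ± 0.16 (SE), adjusted p = 0.0276, and Itgam, an integrin of myeloid cells, rose, at 0.71 ± 0.17 (SE), adjusted p = 0.0390. Fpr2, of the late list, rose there at 0.73 ± 0.18 (SE), adjusted p = 0.0401. The difference between these lists and the members was not tested.

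Known regulators and partners of the members did not pass in DKO against VAV. Of 13 granulocyte transcription factors, among them Cebpa, Cebpe, Gfi1, Myb, Runx1 and Spi1, none passed, with 5 higher, 8 lower and a median of -0.04. Klf4 had the smallest p, at -0.62 ± 0.22 (SE), adjusted p = 0.182. Of 17 chaperones and regulators of the endoplasmic reticulum, the company of Calr, none passed, with 12 higher. Xbp1, the transcription factor of the unfolded protein response, was at 0.36 ± 0.11 (SE), adjusted p = 0.137 against VAV, and it rose in DKO against CDK8KO, at 0.63 ± 0.11 (SE), adjusted p = 0.00621, and against CDK19KO, at 0.52 ± 0.11 (SE), adjusted p = 0.0200. Of the 11 tested genes of the insulin-like growth factor axis, to which Igfbp4 belongs, none passed, with 3 higher and 8 lower. Igf2r, a receptor that clears insulin-like growth factor 2, was at -0.46 ± 0.14 (SE), adjusted p = 0.133. Stromal and vessel genes, another possible place of Igfbp4, had 0 of 10 past the threshold, with 3 higher and 7 lower, while Cdh5, a cadherin of vessels, rose in DKO against CDK8KO, at 0.98 ± 0.23 (SE), adjusted p = 0.0342. Among markers of other cells in the marrow none passed in DKO against VAV: 2 of 10 monocyte genes, 1 of 14 erythroid genes, 0 of 5 megakaryocyte genes and 5 of 9 B cell genes were higher. Ly6c2, a surface protein of monocytes, rose in DKO against CDK19KO, at 1.39 ± 0.30 (SE), adjusted p = 0.0181. The 10 mitosis genes were all lower, with a median of -0.25, and the 8 skeletal muscle genes all higher, with a median of 2.29. These muscle genes took 0.0287% of reads in DKO replicate 4, against 0.000362% to 0.00136% in DKO replicates 1 to 3 and 0.000322% to 0.000635% in VAV. Of the 8, 4 were at 0 in at least 1 library.

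Over all tested genes, those most like the 4 granule enzymes were sought by their correlation over the 19 libraries with the mean standardised log2 level of Mpo, Elane, Prtn3 and Ctsg. The 8 highest were Gstm1 (0.94), Pcyox1 (0.93), Tmed10 (0.92), Bri3bp (0.91), Gusb (0.91), Acot7 (0.91), Tpi1 (0.90) and 1700020L24Rik (0.90). Gusb, the azurophil and lysosomal enzyme beta-glucuronidase, was in the azurophil list. Of the other members, Ms4a3 ranked 22 among all genes at 0.85, Calr 170 at 0.76, Igfbp4 355 at 0.70 and Nkg7 1149 at 0.56. Gstm1, a glutathione transferase, was at 3010 normalised counts on average in VAV and 1872 in DKO, with a log2 fold change of -0.73 and adjusted p = 0.318, and none of the 8 passed in DKO against VAV.

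The genomic neighbours of the members were examined within 50 kb of their starts. None of the 8 tested neighbours of Elane passed in DKO against VAV, with a median of -0.49, and none of the 7 of Prtn3, with a median of -0.55. These windows overlap, and each holds the other member. The single tested neighbour of Ctsg, the mast cell protease gene Mcpt8, starts 17301 bases away and rose in DKO against VAV by 1.19 ± 0.23 (SE), adjusted p = 0.0121. Mcpt8 belongs to the basophil list above. Ms4a2, which encodes a chain of the IgE receptor and starts 17132 bases from Ms4a3, was at 0.78 ± 0.20 (SE), adjusted p = 0.0669, against VAV. It rose against CDK8KO, at 0.86 ± 0.20 (SE), adjusted p = 0.0364, and against CDK19KO, at 0.83 ± 0.20 (SE), adjusted p = 0.0390. Of the 7 tested neighbours of Calr, 1 passed: Nfix, a transcription factor gene that starts 46590 bases away, was at -0.76 ± 0.15 (SE), adjusted p = 0.0117. None passed among the tested neighbours of Mpo, Nkg7 and Igfbp4.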

How the data were processed

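RNA sequencing of 19 bone marrow libraries was analysed from 1 table of 34432 genes. Per the submitters' processing notes, Salmon 1.4.0, DESeq2 and the mouse build mm10 were used; the annotation release is not given in the sources used here. The authors deposited normalised counts, which is a signal scaled by library: 100% of values became whole numbers of reads (within 0.001 read) after multiplication by 1 size factor per library, and these factors equalled those of DESeq2. From the labels, libraries fell into WT (n = 3) and VAV, CDK8KO, CDK19KO and DKO (n = 4 each). Columns were matched to libraries by name.

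The main test was limma 3.58.1 (R 4.3.3) with a mean-variance trend on log2(normalised count + 1), in 1 fit of the 5 groups. It covered 13976 genes, those averaging 10 or more, all 8 members among them. Benjamini-Hochberg adjustment ran over all tested genes and the threshold was 0.05. Fold changes are therefore on the log2(value + 1) scale. The depositors' scaling assumes that most genes do not differ. edgeR 4.0.16 (quasi-likelihood) and DESeq2 1.42.0 were run on the recovered reads as alternatives. Other alternatives changed the pseudocount, the filter, the samples fitted, the control group and the replicate block, or left out libraries. Fits relative to Elane or Mpo subtracted that gene's log2 level from all others and used limma without the trend. These reference genes were chosen with the values known, so the p-values are no independent test of the members. Ratios between members are descriptions with no test. The tests were tried on simulated data first. No 2 libraries agreed within sampling noise.

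The members, the 16 other lists (194 genes) and the ratios were chosen with earlier results of these data known. From each list the text names up to 4 genes, by smallest p in DKO against VAV, and genes that passed in another comparison; others were named after their values were seen. One list gene is not reported here. The 8 genes most like the granule enzymes were ranked by correlation. Promoter sequences and starts came from RefSeq (GRCm38.p6).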

Additional observations from a re-analysis of the deposited data

Results flagged for a closer look

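Of 60 groups of 4 values checked, 4 held 1 library far from the other 3, by a gap to the nearest value above 0.829 of the group's range (Dixon's critical value for 4 values). Chance alone flags about 1 in 20 such groups.

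Igfbp4 stood at 3227 normalised counts in CDK8KO replicate 4, while the other 3 libraries of that group stood at 1535, 1564 and 1682. This library was also the highest of its group for all 8 members. Igfbp4 stood at 1818 in DKO replicate 3, against 3073, 3231 and 3327 in the other 3. The ratio of Ctsg to Prtn3 was 1.59 in CDK19KO replicate 4, one of the muscle-rich libraries, and 1.27, 1.29 and 1.29 in the rest of its group. The ratio of Ms4a3 to Elane was 0.663 in CDK8KO replicate 3, against 0.379, 0.410 and 0.415 in the rest of its group, and it is the value that keeps DKO from standing apart from all other libraries for this ratio.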

How the results depend on the processing

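Of 1088 alternative values of the members' 56 log2 fold changes, 53 in 22 results changed sign, none of them called before or after, and the cause was not tested. With WT as the control, CDK8KO gave 0.00365 for Mpo and 0.123 for Calr, and DKO gave 0.239 for Calr and 0.360 for Igfbp4. With VAV as the control, CDK19KO gave -0.237 for Ctsg, -0.201 for Calr and -0.416 for Igfbp4. Without the erythroid-rich libraries, 1 member (Mpo) passed in DKO against VAV, where Ctsg was at -0.00418 and Ms4a3 at -0.150, and Prtn3 was at -0.134 in DKO against CDK8KO. The members lower in DKO against VAV then numbered 7 of 8. Without the muscle-rich libraries, Ctsg was at -0.0120 in CDK19KO against WT, Prtn3 at 0.155 in DKO against CDK19KO and Elane at 0.0371 in the interaction. Members lower in CDK19KO against WT then numbered 6 of 8, and members higher in DKO against CDK19KO 6 of 8. In the interaction 6 of 8 were then higher, and 5 of 8 with all libraries. Prtn3 in DKO against CDK19KO was also at 0.0722 in edgeR, 0.0855 in edgeR with DESeq2 size factors and 0.0853 in DESeq2. DESeq2 called 1 member in DKO against CDK8KO.

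With each library left out, the members called in DKO against CDK8KO ranged from 0 to 2. For CDK19KO against WT, Mpo ranged from -0.275 to 0.00817, Ctsg from -0.0572 to 0.186 and Igfbp4 from -0.0155 to 0.253. For DKO against VAV, Ctsg ranged from -0.00418 to 0.515, Ms4a3 from -0.150 to 0.289 and Igfbp4 from -0.272 to 0.0222. For VAV against WT, Elane ranged from -0.153 to 0.308, Ctsg from -0.00116 to 0.519, Ms4a3 from -0.0882 to 0.329 and Nkg7 from -0.0729 to 0.272. For DKO against CDK8KO, Prtn3 ranged from -0.134 to 0.362 and Calr from -0.0193 to 0.296. For DKO against CDK19KO, Mpo ranged from -0.399 to 0.110, Prtn3 from -0.199 to 0.177 and Calr from -0.0134 to 0.145. For the interaction, Mpo ranged from -0.423 to 0.106, Elane from -0.297 to 0.144 and Calr from -0.212 to 0.126.

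Libraries with the same replicate number were not paired by the labels, and their deviations correlated at -0.274 to 0.306 over 36 pairs, with 6 above 0.1 and 17 of 72 best matches to the same number. With the replicate block 1 member (Nkg7, 0.84, adjusted p = 0.0333) was called in DKO against CDK8KO, where 204 of 13976 tested genes were. The block gave -0.0647 for Ctsg in CDK19KO against WT, -0.000542 for Elane and -0.0236 for Nkg7 in VAV against WT, and 0.00835 for Calr in the interaction, and it changed no other call of a member.

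The count of all genes called in DKO against VAV was 213, with 504 in DESeq2, 99 from the groups compared alone, 385 without the erythroid-rich and 102 without the muscle-rich libraries, and 107 to 226 with each library left out. For DKO against CDK8KO it was 238, with 711, 31 and 92 in DESeq2, from the groups alone and without the muscle-rich libraries, and 105 to 422 with each left out. For DKO against CDK19KO it was 279, with 601, 968 and 97 in the same order, and 119 to 227. For VAV against WT it was 13, with 320 in DESeq2, 3 from the groups alone, 1060 without the erythroid-rich libraries and 3 to 416 with each left out. For CDK19KO against WT it was 3, with 15 in DESeq2, 12 against VAV, 6 without the filter, 1 with the block and 1 to 2 with each left out. For CDK8KO against VAV it was 0, with 1161 genes at an unadjusted p under 0.05, 0 in edgeR, 1 in DESeq2 and 12 against WT. For the interaction it was 21, with 98 in DESeq2, 11 without the muscle-rich libraries and 10 to 21 with each left out.

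Depth was not the limit for the members, which had at least 587 reads in each library.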
